A study of Caenorhabditis elegans with 8 samples.

Results

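The cyp genes of Caenorhabditis elegans encode cytochrome P450 enzymes. Members were all genes of the deposited mRNA count table whose WormBase symbol begins with cyp- followed by a digit, which gave 73 of 20182 genes. They fell into 15 families, named by the number in the symbol, and 25 subfamilies, named by the number and letter. All 73 were annotated as protein coding. The nuclear hormone synthesis enzyme DAF-9 is also a P450, but its gene symbol is not matched by this rule.

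The data were counts from total RNA of whole young adults, in 4 groups of 2 libraries. Larvae synchronised by bleaching and hatching in buffer were fed dsRNA against rege-1, which encodes an RNase domain protein, or a mock control. This was done in N2, the standard laboratory strain, and in animals labelled glp-1 (e2141), an allele of a germline Notch receptor gene. The glp-1 animals were grown at 25 °C, which the labels call restrictive, and the temperature of the N2 animals is not stated. Each strain thus gave a mock group and an RNAi group, and strain and growth temperature cannot be told apart between them. Nothing in the labels says that the 2 libraries of a group came from separate cultures. The p-values therefore measure the spread between these libraries, which may be technical. The main fit takes this spread from all 4 groups together, although it differed between them. The mean chi-square per gene between the 2 libraries was 38.3 for N2 mock and 28.9 for N2 RNAi. For the glp-1 animals it was 3.40 under mock feeding against 55.5 with RNAi. Pooled p-values may thus misstate the spread of the groups compared. The part of this spread in calls lost or gained on leaving out a library was not tested.

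P450 enzymes are heme proteins, most of which insert an oxygen atom into a small molecule. Enzymes of the endoplasmic reticulum receive electrons from NADPH-cytochrome P450 reductase, with cytochrome b5 as a second donor. In C. elegans many cyp genes are expressed in the intestine, where several of family 35 are induced by foreign compounds. Other members act on fatty acids, on sterol-derived hormones or in forming the eggshell.

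The libraries held 26127079 to 30093967 mRNA counts. The rege-1 gene itself had 396 and 354 counts in the N2 mock libraries and 2664 and 2137 in the N2 libraries labelled rege-1 RNAi. It had 495 and 480 counts in glp-1 mock and 1950 and 1891 in the glp-1 libraries labelled rege-1 RNAi. Its counts were thus higher in every library labelled RNAi, so that these counts do not show a knockdown, and RNAi below means the label. Its intron counts were 15 in each N2 mock library, 4166 and 3265 in N2 RNAi, 40 and 25 in glp-1 mock and 240 and 296 in glp-1 RNAi. The rise in intron counts was thus far larger in N2 than in glp-1. Whether reads of the fed dsRNA are among these counts was not tested, nor was the part of this difference in comparisons of the RNAi response between the strains. The libraries labelled glp-1 also kept germline RNA. The summed level of 7 germline markers was 1529 to 1730 CPM (counts scaled to a common library size after TMM normalisation) in N2 mock and 1135 to 1161 CPM in glp-1 mock. The 9 oocyte and eggshell markers summed to 4306 to 5474 CPM against 4055 to 4202 CPM. The 6 embryo markers summed to 39.9 to 43.2 CPM against 35.9 to 36.6 CPM.

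In position the family was concentrated on chromosome V, which held 41 members, against 12 on II, 7 on X, 6 each on III and IV and 1 on I. Of the 73 genes, 45 lay in 11 groups of neighbours with at most 20 kb between genes. The largest was a group of 10 genes of subfamilies 34A, 35A and 35B on V, from 3936326 to 3972991 (WBcel235, Ensembl annotation). A group of 8 genes of subfamily 13A lay on II from 9779181 to 9807569. Coding length ranged from 711 to 1647 bases, with a median of 1500 against 1095 over all genes tested. The sources used here give no counting rules, so reads could be split between near-identical copies such as cyp-31A2 and cyp-31A3. The values of such pairs are uncertain in that respect. The annotated spans of 7 members overlapped another gene, in no case in coding sequence.

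Per coding length, in RPKM (CPM per kilobase of coding length), cyp-13A6 was the highest member in every library. Its level was 576 ± 4.0 RPKM (SD, n = 2) in N2 mock and 363 ± 63 in N2 RNAi. In glp-1 it was 206 ± 1.8 with mock and 178 ± 51 with RNAi. It made up 23.1% to 45.2% of the summed CPM of the family. The next in N2 mock was cyp-34A9 at 158 ± 5.5 RPKM, followed by cyp-31A2 at 62.5 ± 9.6, cyp-34A8 at 55.0 ± 5.5, cyp-44A1 at 49.8 ± 2.2, cyp-25A2 at 44.5 ± 3.5 and cyp-31A3 at 40.3 ± 1.1. The ranges of cyp-31A2 and cyp-34A8 overlapped, as did those of cyp-34A8 and cyp-44A1, so their order is not resolved. In N2 mock 19 members had at least 10 RPKM, 29 had 1 to 10 RPKM and 25 had less than 1 RPKM.

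**Figure D1:**
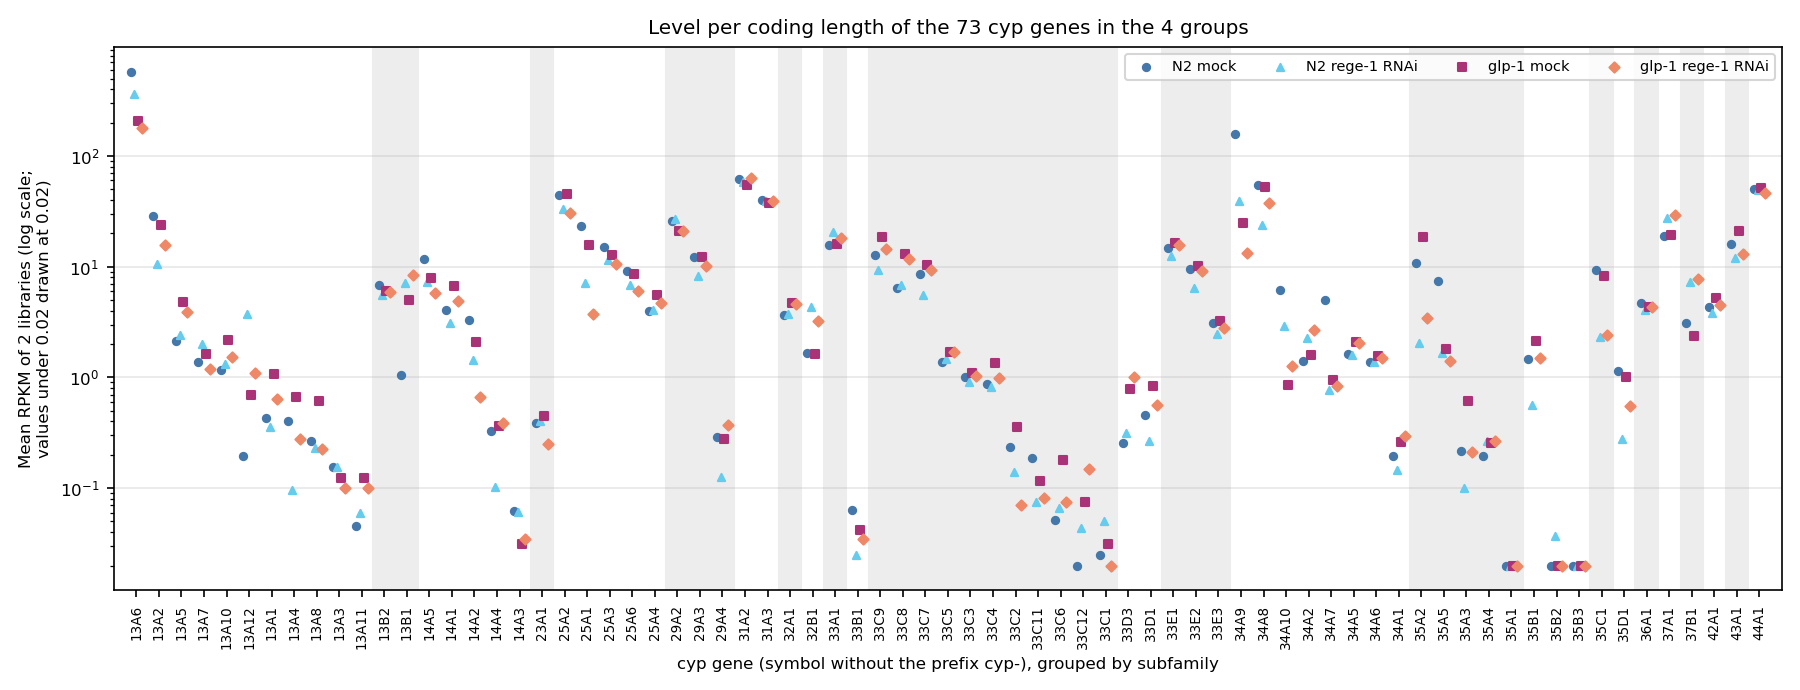
Mean RPKM of 2 libraries on a log axis for each of the 73 cyp genes, ordered by subfamily, with 1 symbol per group and values under 0.02 drawn at 0.02. The point of cyp-13A6 in N2 mock at 576 RPKM is the highest, and cyp-35A1 and cyp-35B3 are drawn at 0.02 in every group.

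The filter on low counts kept 62 members for testing. The 11 that it removed were cyp-13A3, cyp-13A11, cyp-14A3, cyp-33B1, cyp-33C1, cyp-33C6, cyp-33C11, cyp-33C12, cyp-35A1, cyp-35B2 and cyp-35B3, with at most 11 counts in any library. The genes cyp-35A1 and cyp-35B3 had 1 count each over the 8 libraries and cyp-35B2 had 3. A count of 0 allows a level of up to 0.0930 to 0.117 CPM in these libraries (3 counts, counting error only), so that expression below this was not detectable.

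In N2, RNAi was compared with mock to ask which genes respond to the rege-1 treatment. Of the 62 tested members 5 were higher and 12 were lower (edgeR quasi-likelihood test, adjusted p under 0.05). These are 8.06% and 19.4% of the members, against a background of 3.13% and 1.66% of the 15321 genes tested, and in either direction 27.4% against 4.79%. The median log2 change was -0.32 over the members and -0.01 over all genes. Both RNAi libraries lay above both mock libraries in 9 members and below them in 31, against 19.4% and 21.8% of all genes. The count of calls fell from 17 to 10 without N2 mock replicate 1. The summed level of the family was 2024 and 1978 CPM in the N2 mock libraries and 1411 and 1210 CPM in the N2 RNAi libraries. Families 34 and 35 account for 9 of the 12 lower members. As the samples are whole animals, fewer cells of a type and less RNA per cell cannot be told apart.

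The summed level of the intestine markers moved the other way in the same libraries. The 8 intestine markers summed to 1088 and 1123 CPM in N2 mock and to 2159 and 2302 CPM in N2 RNAi. In glp-1 they summed to between 1135 and 1176 CPM in mock and between 1911 and 2091 CPM in RNAi. Over all genes 3.13% were called higher in N2 and 1.89% in glp-1. In each strain 3 of the 8 markers were called, all higher, and none was called lower. These were vha-6, a subunit of the apical proton pump, act-5, the actin of the microvilli, and pept-1, a peptide transporter. Their log2 changes were 1.34, 1.04 and 1.28 in N2 and 1.11, 0.96 and 0.71 in glp-1. Over the 8 markers the median log2 change was smaller, at 0.41 in N2 and 0.29 in glp-1. The lowest values were 0.05 in N2 and -0.09 in glp-1. In glp-1 the call of pept-1 was lost without either N2 RNAi library (adjusted p = 0.0678 and 0.0675) and without either glp-1 mock library (0.353 and 0.409). It was also lost with library totals (0.0513), limma (0.0561) and the glp-1 groups alone (0.107). That of act-5 was lost there without either glp-1 mock library (0.0849 and 0.0528). The part of these shifts in the cyp results was not tested.

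Family 35 holds the genes best known as induced by foreign compounds, and 5 of its 7 tested members were lower in N2 RNAi, with none higher. The background of lower genes was 1.66%. The gene cyp-35A2 (WBGene00015400, V from 7362319 to 7364182), whose enzyme family has been tied to fat storage, had 16 and 16.1 CPM in N2 mock and 3.41 and 2.64 CPM in N2 RNAi. The groups were far apart, at 5.31-fold lower in RNAi (log2 change -2.41, SE 0.19, adjusted p = 8.88e-06). For cyp-35A5 (WBGene00019473) the values were 11.5 and 10.7 CPM in mock and 2.88 and 2.09 CPM in RNAi, a log2 change of -2.16 (SE 0.22, adjusted p = 8.06e-05). For cyp-35C1 (WBGene00007362) they were 11.5 and 16.2 CPM in mock and 4.29 and 2.64 CPM in RNAi, a log2 change of -2.0 (SE 0.27, adjusted p = 0.000702). These 3 genes kept their call under each alternative run.

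The other called members of family 35 were of low level. The gene cyp-35B1, known as a gene raised when insulin signalling is reduced, had 2.91 and 1.91 CPM in mock and 0.910 and 0.954 CPM in RNAi (log2 change -1.37, SE 0.28, adjusted p = 0.0135). Its call was lost on leaving out N2 mock replicate 1 (adjusted p = 0.139), N2 RNAi replicate 1 (0.0763) or N2 RNAi replicate 2 (0.0922), and with the N2 groups alone (0.0529). The gene cyp-35D1 had 1.96 and 1.48 CPM in mock and 0.531 and 0.294 CPM in RNAi (log2 change -2.06, SE 0.43, adjusted p = 0.0146). It was lost on leaving out N2 mock replicate 1 (0.158) or N2 RNAi replicate 2 (0.17). In both genes the libraries of the groups did not overlap. The 2 tested members of family 35 that were not called had low levels, with cyp-35A3 at 0.210 and 0.428 CPM in mock and 0.152 and 0.147 CPM in RNAi, and cyp-35A4 at 0.385 and 0.194 CPM in mock and 0.417 and 0.367 CPM in RNAi.

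All 8 members of subfamily 34A were tested, and 4 were lower in N2 RNAi, against 1.66% of all genes. The most abundant, cyp-34A9 (WBGene00015044, V from 3968134 to 3970540, minus strand), had 251 and 239 CPM in mock and 61.7 and 59.3 CPM in RNAi. It was 4.04-fold lower (log2 change -2.02, SE 0.12, adjusted p = 1.46e-06). The gene cyp-34A7 had 9.18 and 5.87 CPM in mock and 1.48 and 0.807 CPM in RNAi, a log2 change of -2.72 (SE 0.36, adjusted p = 0.00059), the largest fall in the family. The libraries of a group differed by more in cyp-34A7 than in cyp-34A9, but the groups did not overlap in either. The gene cyp-34A8 had 88.3 and 76.6 CPM in mock and 40.8 and 30.2 CPM in RNAi (log2 change -1.22, SE 0.16, adjusted p = 0.000485). The gene cyp-34A10 had 10.1 and 8.28 CPM in mock and 4.32 and 4.33 CPM in RNAi (log2 change -1.09, SE 0.19, adjusted p = 0.00559), and its call was lost without N2 mock replicate 1 (adjusted p = 0.0618). The other 4 members, cyp-34A1, cyp-34A2, cyp-34A5 and cyp-34A6, were not called, with log2 changes from -0.39 to 0.70. Together, families 34 and 35 summed to 410 and 383 CPM in N2 mock and 128 and 113 CPM in N2 RNAi. Their share of the summed cyp CPM was 20.3% and 19.4% in mock and 9.09% and 9.32% in RNAi.

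Outside families 34 and 35, 3 members were lower in N2. The gene cyp-25A1 (WBGene00007963, III from 3832591 to 3834586) had 31.4 and 39.6 CPM in mock and 12.2 and 9.25 CPM in RNAi, which was 3.31-fold lower (log2 change -1.73, SE 0.20, adjusted p = 0.000208). Its neighbours in a group of 4 genes, cyp-25A2, cyp-25A3 and cyp-25A4, had log2 changes of -0.41, -0.37 and 0.03 and were not called. The gene cyp-14A2 (WBGene00010706) had 5.01 and 4.78 CPM in mock and 2.09 and 2.17 CPM in RNAi (log2 change -1.20, SE 0.22, adjusted p = 0.00699). It was lost on leaving out N2 mock replicate 1 (0.0583) or N2 RNAi replicate 2 (0.0537). The values of cyp-13A2 were uneven, at 55.8 and 32.9 CPM in mock and 22.2 and 10.3 CPM in RNAi (log2 change -1.45, SE 0.31, adjusted p = 0.0182). Its call was lost on leaving out N2 mock replicate 1 (0.264), N2 RNAi replicate 2 (0.127), glp-1 RNAi replicate 1 (0.105) or glp-1 RNAi replicate 2 (0.108), and also with no filter (0.0963) or a fit of the N2 groups alone (0.201). The most abundant member, cyp-13A6, had 902 and 893 CPM in mock and 634 and 496 CPM in RNAi, a log2 change of -0.67 that did not pass (SE 0.19, adjusted p = 0.0915).

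The 5 higher members in N2 came from families 13, 32 and 37. The gene cyp-13A12 (WBGene00008810, III from 13024547 to 13028017), known for a role in the behavioural response to reoxygenation, had 0.456 and 0.156 CPM in mock and 5.61 and 6.02 CPM in RNAi. It was 18.4-fold higher (log2 change 4.20, SE 0.35, adjusted p = 1.52e-05), the largest rise in the family. The mock libraries held 13 and 4 counts of it and the RNAi libraries 148 and 164, so the size of the fold is uncertain. The gene cyp-13B1 (WBGene00008519) had 1.09 and 2.26 CPM in mock and 10.5 and 12.1 CPM in RNAi, or 6.82-fold higher (log2 change 2.77, SE 0.27, adjusted p = 6.37e-05). Both kept their call under each alternative run, as did cyp-32B1 (WBGene00021167), with 2.45 and 2.72 CPM in mock and 6.64 in each RNAi library (log2 change 1.36, SE 0.20, adjusted p = 0.00116). The values of cyp-37B1 (WBGene00009226) were 4.70 and 4.86 CPM in mock and 8.91 and 13.5 CPM in RNAi (log2 change 1.23, SE 0.22, adjusted p = 0.00509). It was lost without N2 mock replicate 1 (0.076) or 2 (0.0544). The smallest called change was that of cyp-37A1 (WBGene00008499), with 29.4 and 27.8 CPM in mock and 40.0 and 43.3 CPM in RNAi (log2 change 0.54, SE 0.13, adjusted p = 0.0299). This call was lost without N2 mock replicate 1 (0.0921) or 2 (0.125), N2 RNAi replicate 1 (0.0651) or 2 (0.223) and glp-1 mock replicate 1 (0.0806) or 2 (0.0906). Other losses came with library totals alone (0.059), limma (0.0602) and the N2 groups alone (0.0713).

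**Figure D2:**
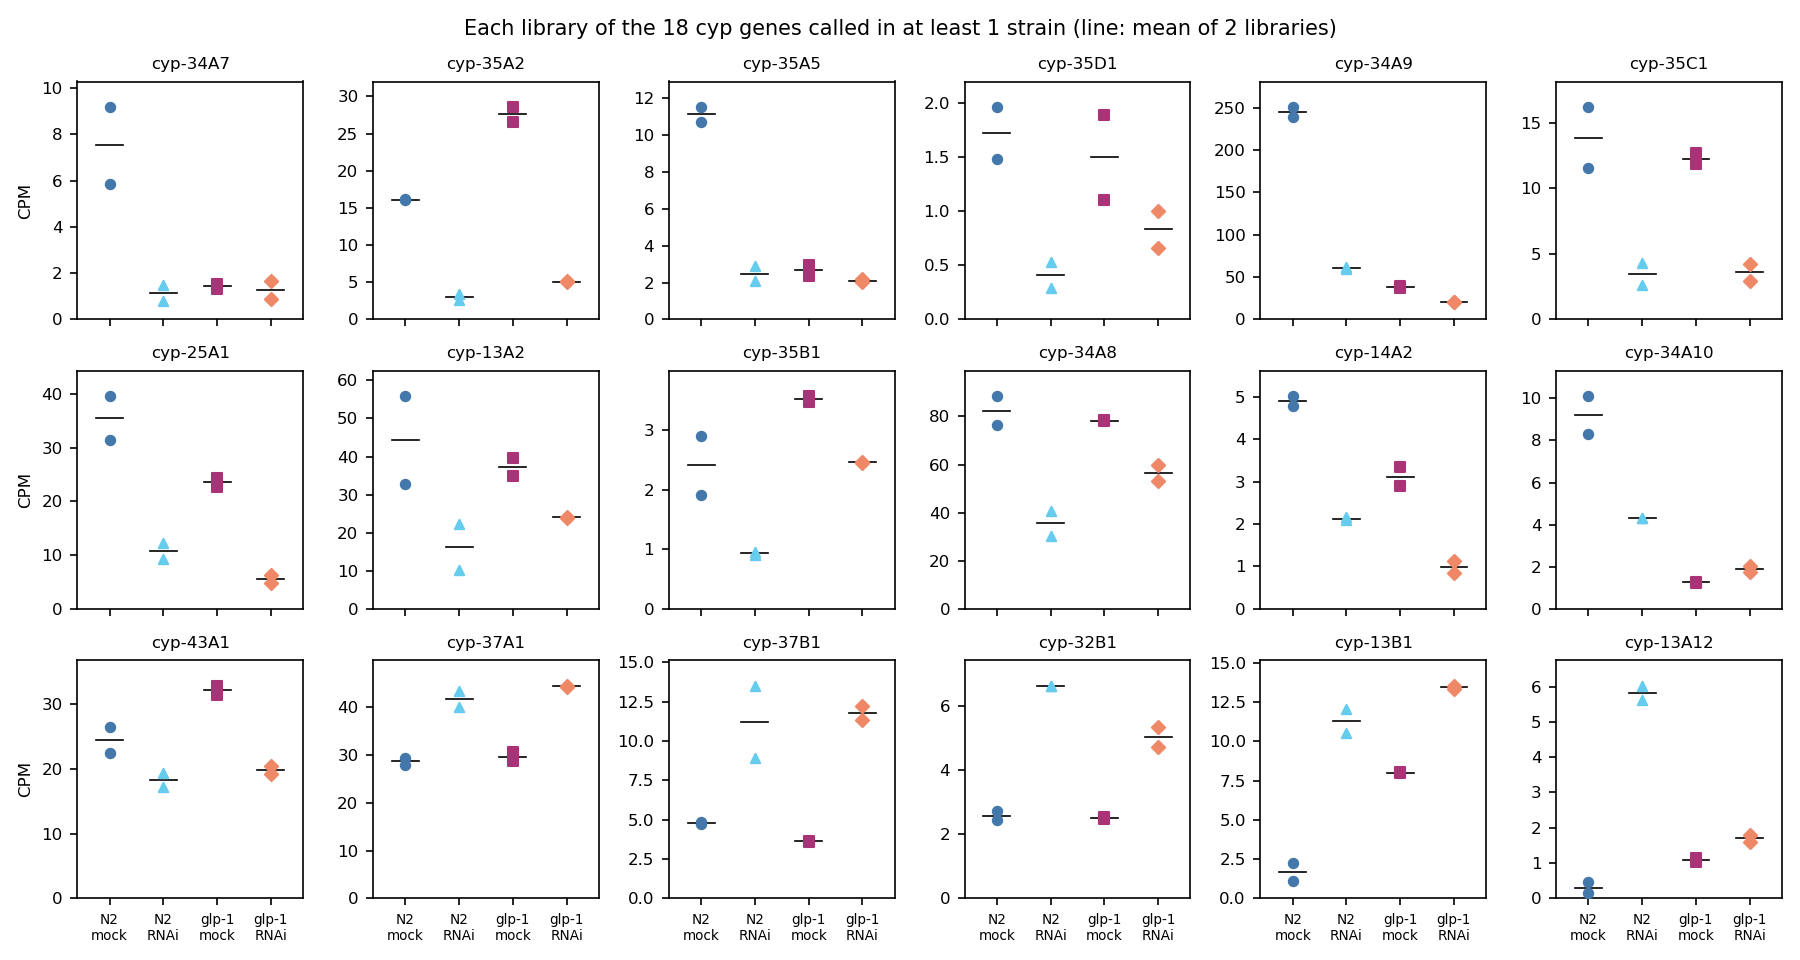
CPM on a linear axis from 0 in each of the 8 libraries for the 18 cyp genes called in at least 1 strain, ordered by their log2 change in N2, with points for libraries and a line for the mean of 2. The genes of families 34 and 35 have lower points in N2 RNAi than in N2 mock, and cyp-13A12 has its 2 highest points, 5.61 and 6.02 CPM, in N2 RNAi.

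In glp-1, the same comparison called 3 members higher and 6 lower, which is 14.5% of the 62 tested against a background of 2.7% of 15321 genes. By direction the background was 1.89% higher and 0.816% lower. The median log2 change was -0.21 over the members and 0.00 over all genes. Both RNAi libraries lay above both mock libraries in 10 members and below them in 31, against 23.4% and 21.8% of all genes. Of the 9 called members, 8 were also called in N2 in the same direction: cyp-32B1, cyp-37A1 and cyp-37B1 higher, and cyp-14A2, cyp-25A1, cyp-34A9, cyp-35A2 and cyp-35C1 lower. The summed level of families 34 and 35 was 177 and 175.6 CPM in glp-1 mock and 107 and 102 CPM in glp-1 RNAi. In these families 3 of 15 tested members were lower and none was higher.

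The largest change in glp-1 was that of cyp-35A2, with 28.6 and 26.6 CPM in mock and 5.01 and 5.18 CPM in RNAi, or 5.41-fold lower (log2 change -2.44, SE 0.18, adjusted p = 9.40e-06). The gene cyp-25A1 had 22.7 and 24.5 CPM in mock and 4.9 and 6.39 CPM in RNAi, or 4.18-fold lower (log2 change -2.06, SE 0.20, adjusted p = 0.00011). For cyp-35C1 the values were 12.7 and 11.9 CPM in mock and 2.96 and 4.21 CPM in RNAi (log2 change -1.77, SE 0.27, adjusted p = 0.00259). In these 3 genes the highest RNAi library lay well under the lowest mock library. The gene cyp-14A2 had 3.35 and 2.89 CPM in mock and 0.834 and 1.14 CPM in RNAi (log2 change -1.66, SE 0.25, adjusted p = 0.00234). The gene cyp-34A9 had 37.7 and 39.1 CPM in mock and 20.4 and 20.8 CPM in RNAi (log2 change -0.90, SE 0.12, adjusted p = 0.00112). These 5 genes and cyp-37B1 kept their call in glp-1 under each alternative run. The values of cyp-37B1 were 3.6 and 3.67 CPM in mock and 12.2 and 11.3 CPM in RNAi, or 3.24-fold higher (log2 change 1.69, SE 0.22, adjusted p = 0.000824).

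The other 3 calls in glp-1 were less firm. The gene cyp-32B1 had 2.54 and 2.47 CPM in mock and 5.35 and 4.73 CPM in RNAi (log2 change 1.01, SE 0.20, adjusted p = 0.0153), and was lost without glp-1 mock replicate 1 (0.212) or 2 (0.259) or glp-1 RNAi replicate 1 (0.121). The gene cyp-37A1 had 28.7 and 30.6 CPM in mock and 44.5 and 44.2 CPM in RNAi (log2 change 0.58, SE 0.13, adjusted p = 0.0290), and was lost without the same libraries (0.489, 0.290 and 0.0860) and with the glp-1 groups alone (0.0562). The gene cyp-43A1 was called in glp-1 but not in N2, with 31.4 and 32.8 CPM in mock and 19.2 and 20.4 CPM in RNAi (log2 change -0.70, SE 0.15, adjusted p = 0.0246). It too was lost without those libraries (0.218, 0.323 and 0.128). In N2 its log2 change was -0.42 (adjusted p = 0.186), and the difference between the strains did not pass (log2 0.28, adjusted p = 0.875). In each of the 3 genes the libraries of mock and RNAi in glp-1 did not overlap.

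**Figure D3:**
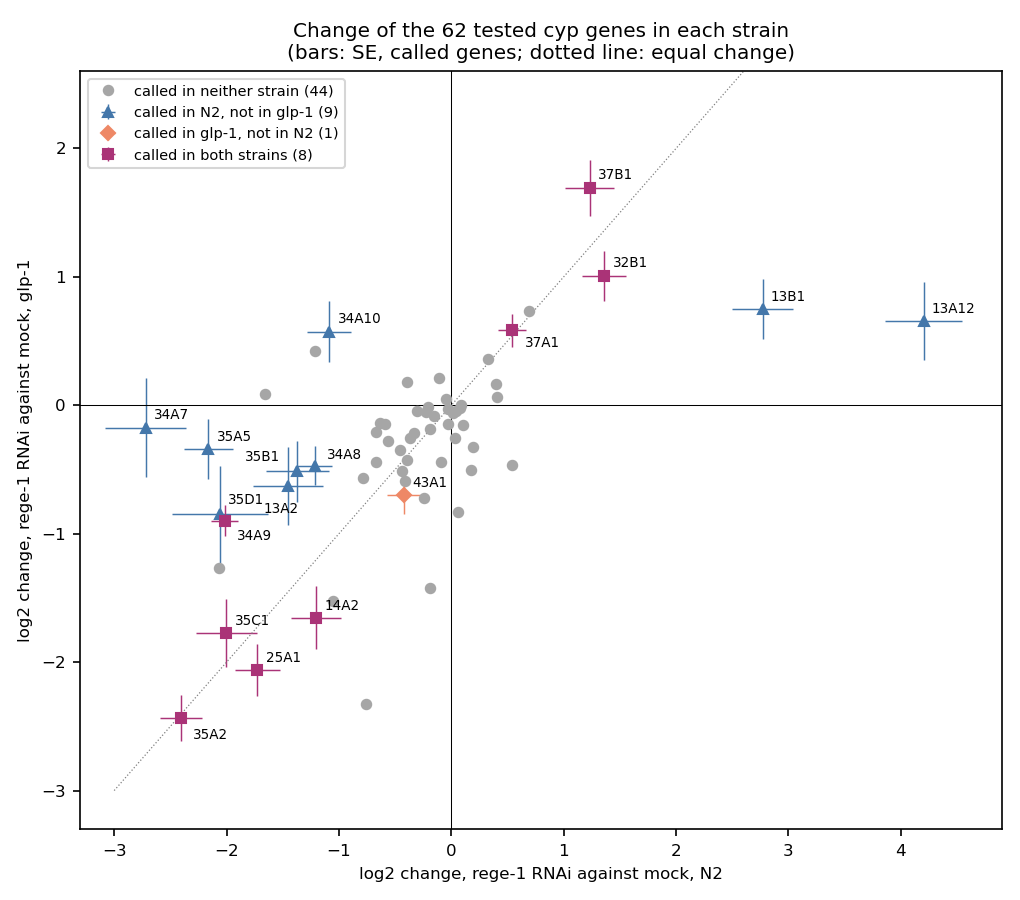
Fitted log2 change of RNAi against mock in N2 (horizontal axis) and in glp-1 (vertical axis) for the 62 tested cyp genes, with bars of 1 SE on the 18 called genes and a dotted line of equal change. The point of cyp-35A2 at -2.41 and -2.44 is on the line, and that of cyp-13A12 at 4.20 and 0.65 is farthest from it.

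Whether a change differed between the strains was tested as the N2 change minus the glp-1 change. In this test 1 of 62 members passed, against 4 of 15321 genes (0.0261%), and 9 members had an unadjusted p under 0.05. The member was cyp-13A12, with a log2 difference of 3.55 (SE 0.48, adjusted p = 0.0429). In glp-1 it had 1.02 and 1.14 CPM in mock and 1.81 and 1.59 CPM in RNAi (log2 change 0.65, adjusted p = 0.496), while in N2 it rose 18.4-fold. The call held without glp-1 RNAi replicate 2 and was lost without N2 mock replicate 1 (adjusted p = 0.0656) or 2 (0.0935), N2 RNAi replicate 1 (0.0855) or 2 (0.163), glp-1 mock replicate 1 (0.166) or 2 (0.222) and glp-1 RNAi replicate 1 (0.0987). DESeq2 called 6 members: cyp-13A12, cyp-13B1, cyp-34A7, cyp-34A9, cyp-34A10 and cyp-35A5. The share of all genes called by DESeq2 was not computed, nor was that at an unadjusted p under 0.05. The counts of 6 and 9 members thus have no background, and the edgeR share of 0.0261% does not serve as one.

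Among the members called in N2 and not in glp-1, the difference did not pass in edgeR for cyp-13B1 (log2 2.02, adjusted p = 0.160), cyp-35A5 (-1.82, 0.160) or cyp-34A7 (-2.55, 0.251), so these genes are not shown to differ between the strains by that fit. Without glp-1 RNAi replicate 2 all 3 passed (0.0363, 0.0395 and 0.0246), and with no filter cyp-13B1 did (0.0344). For cyp-34A9, lower in both strains, the difference was -1.12 (adjusted p = 0.0609), which passed with no filter (0.0344), with the length trend removed (0.0143) and without glp-1 RNAi replicate 2 (0.0123). The gene cyp-34A10 had log2 changes of -1.09 in N2 and 0.57 in glp-1, a difference of -1.66 (adjusted p = 0.175, or 0.0304 without glp-1 RNAi replicate 2). In it every RNAi library lay below mock in N2 and above mock in glp-1. The gene cyp-13A7 had the opposite arrangement, with 2.10 and 2.18 CPM in N2 mock, 3.15 and 3.08 in N2 RNAi, 2.54 and 2.53 in glp-1 mock and 1.70 and 1.97 in glp-1 RNAi. Its difference was 1.01 (adjusted p = 0.773). Over all genes, RNAi lay below mock in 21.8% in N2 and above it in 23.4% in glp-1. It lay above mock in 19.4% in N2 and below it in 21.8% in glp-1. The share of all genes with such opposite arrangements was not computed. For cyp-35A2 and cyp-37A1, called in both strains, the differences were 0.03 (SE 0.26) and -0.04 (SE 0.18).

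Under mock feeding, glp-1 was compared with N2, a contrast of strain together with growth temperature. Of the 62 members 8 were higher and 5 lower in glp-1 (21% together, against a background of 9.73% of 15321 genes, with 6.49% higher and 3.24% lower). Both glp-1 libraries lay above both N2 libraries in 28 members and below them in 12, against 32.6% and 30.3% of all genes. The count of calls was 8 without N2 mock replicate 1 or 2, 6 without glp-1 mock replicate 1 and 7 without glp-1 mock replicate 2. The 5 lower members were cyp-13A6, cyp-34A7, cyp-34A9, cyp-34A10 and cyp-35A5, and each kept its call under each alternative run. The summed level of the family was 1213 CPM in each glp-1 mock library. Other markers moved in this contrast as well. Of 8 hypodermis markers 3 were lower (rol-6, bli-1 and bli-2, with log2 changes of -2.59, -1.84 and -2.83). The log2 changes of all 8 ran from -2.83 to 0.81, and their summed level was higher in glp-1. It was 2592 to 3153 CPM in N2 mock and 3269 to 3349 CPM in glp-1 mock. Of 7 germline markers 2 were lower (glh-1 and pgl-1, -1.09 and -0.49), and of 5 tested sperm markers 2 were higher (spe-41 and gsp-4, 0.67 and 0.89). Of 5 body wall muscle markers myo-3 was lower (-0.68), and of 5 neuron markers rab-3 was higher (0.93). None of the 8 intestine markers was called by edgeR, with 1 at an unadjusted p under 0.05 and 1 called by DESeq2. The part of these in the cyp results was not tested. Without N2 mock replicate 1 the call of rol-6 was lost (adjusted p = 0.132), as was that of bli-1 (0.0899). The call of rol-6 was also lost without glp-1 mock replicate 2 (0.0993) and that of bli-1 without glp-1 mock replicate 1 (0.0951). That of pgl-1 was lost without any of the 4 mock libraries and without either N2 RNAi library (0.0501 to 0.330), with the replicate block (0.0580), with no filter (0.0615), with library totals (0.110) and with limma (0.106). That of spe-41 was lost without any mock or N2 RNAi library (0.0509 to 0.282). Those of gsp-4, myo-3 and rab-3 were lost without N2 mock replicate 2 (0.103, 0.132 and 0.0952), glp-1 mock replicate 1 (0.119, 0.157 and 0.145) or glp-1 mock replicate 2 (0.125, 0.221 and 0.0955), and that of myo-3 also with limma (0.0527) and the length trend removed (0.0598).

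The largest of these differences was in cyp-34A10, with 10.1 and 8.28 CPM in N2 mock and 1.24 and 1.3 CPM in glp-1 mock, or 7.22-fold lower (log2 change -2.85, SE 0.22, adjusted p = 9.57e-06). The gene cyp-34A9 fell from 251 and 239 CPM to 37.7 and 39.1 CPM, or 6.37-fold lower (log2 change -2.67, SE 0.12, adjusted p = 6.52e-07). The values of cyp-34A7 were 9.18 and 5.87 CPM in N2 and 1.33 and 1.53 CPM in glp-1 (log2 change -2.40, adjusted p = 0.00118). For cyp-35A5 they were 11.5 and 10.7 CPM in N2 and 2.94 and 2.37 CPM in glp-1 (log2 change -2.06, adjusted p = 0.000105). All 4 genes belong to the group of 10 on chromosome V, and their libraries did not overlap between the strains. In glp-1 mock the levels of cyp-35A5 and cyp-34A7 were close to those in N2 RNAi, while cyp-34A9 and cyp-34A10 were lower in glp-1 mock than in N2 RNAi. The N2 mock libraries serve in both comparisons.

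Of the other genes of that group, cyp-34A8 had 88.3 and 76.6 CPM in N2 mock and 78.1 and 78.4 CPM in glp-1 mock, and was not called between the strains (log2 change -0.08, SE 0.15, adjusted p = 0.794). The gene cyp-35B1 had 2.91 and 1.91 CPM in N2 mock and 3.56 and 3.47 CPM in glp-1 mock (log2 change 0.54, adjusted p = 0.176). The adjacent cyp-34A5 and cyp-34A6 had log2 changes of 0.36 and 0.19 between strains and of -0.03 and 0.01 with RNAi in N2, none of them called. Levels within the group thus differed from gene to gene on the same strand, with cyp-34A8 and cyp-34A9 far above cyp-34A5, cyp-34A6, cyp-34A7 and cyp-34A10. Per coding length in N2 mock they were at 55.0 ± 5.5 and 158 ± 5.5 RPKM, and the other 4 were at 1.37 to 6.12 RPKM.

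**Figure D4:**
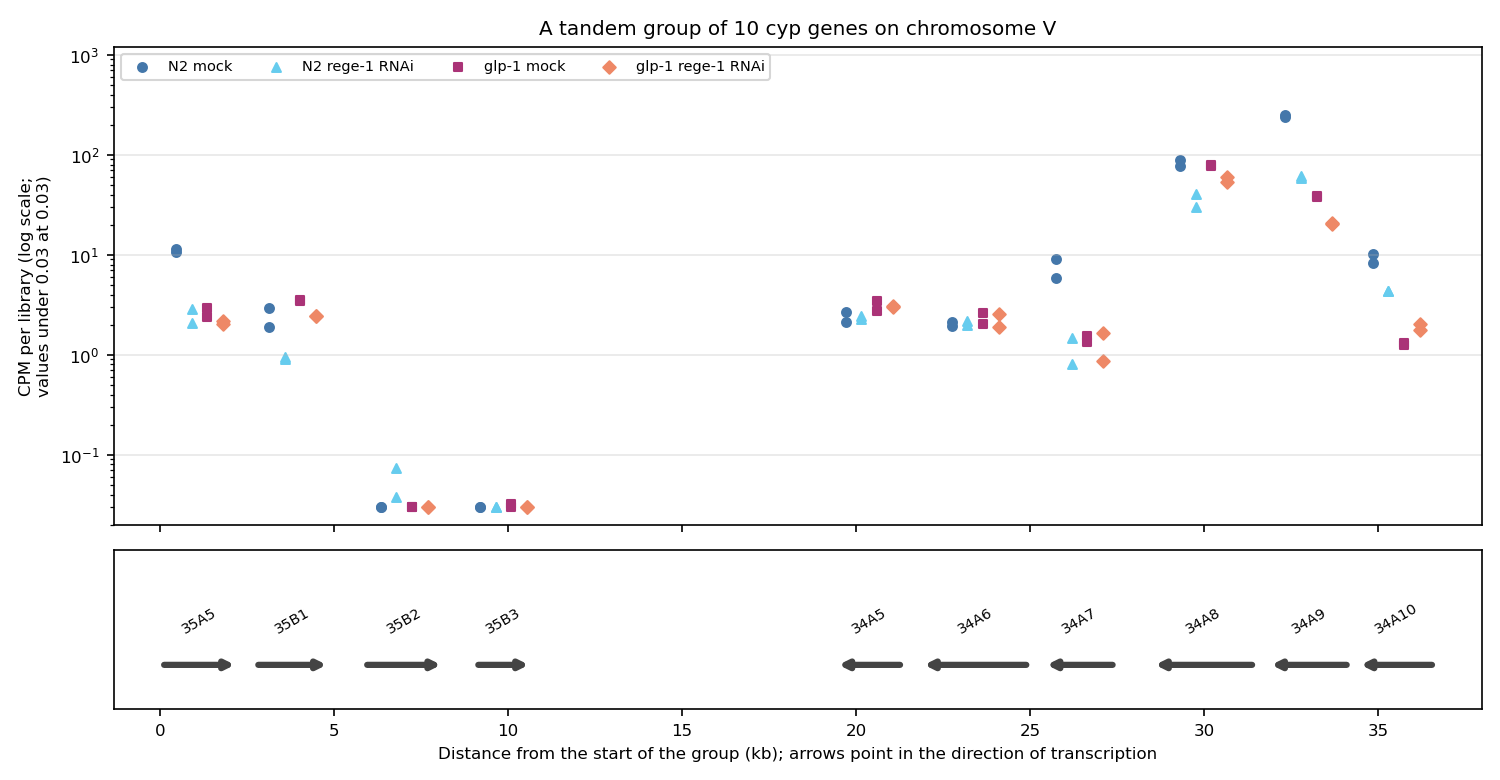
CPM on a log axis in each library for the 10 cyp genes of the group on chromosome V, drawn above a map to scale of gene spans in kb from the start of the group, with arrows for the strand and values under 0.03 drawn at 0.03. In cyp-35A5, cyp-34A7, cyp-34A9 and cyp-34A10 the N2 mock points lie above those of the other 3 groups, and in cyp-34A5 and cyp-34A6 the 4 groups lie together.

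The gene cyp-13A6 (WBGene00011673, II from 9800758 to 9802821) had 318 and 322 CPM in glp-1 mock, against 902 and 893 CPM in N2 mock, or 2.80-fold lower (log2 change -1.49, SE 0.20, adjusted p = 0.000697). Genes near it in the group of 8 on chromosome II went the other way. The gene cyp-13A5 had 2.91 and 3.77 CPM in N2 and 6.57 and 8.57 CPM in glp-1 (log2 change 1.18, adjusted p = 0.0238), and cyp-13A1 had 0.596 and 0.739 CPM in N2 and 1.77 and 1.56 CPM in glp-1 (log2 change 1.32, adjusted p = 0.0181). These calls were lost without N2 mock replicate 1 (0.169 for cyp-13A5 and 0.105 for cyp-13A1) or 2 (0.0710 and 0.0527) and without glp-1 mock replicate 1 (0.0602 and 0.171) or 2 (0.190 and 0.0926), and DESeq2 did not call cyp-13A1 (0.0665). The remaining members of the group, cyp-13A2, cyp-13A3, cyp-13A4, cyp-13A7 and cyp-13A8, were not called or not tested under mock.

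Of the higher members in glp-1 mock, cyp-13B1 kept its call under each alternative run. It had 1.09 and 2.26 CPM in N2 mock and 7.97 and 8.02 CPM in glp-1 mock, or 4.82-fold higher (log2 change 2.27, SE 0.27, adjusted p = 0.000313). The gene cyp-13A12 was also higher, at 1.02 and 1.14 CPM against 0.456 and 0.156 CPM (log2 change 1.78, SE 0.40, adjusted p = 0.0182). It was lost without N2 mock replicate 2 (0.0867) and glp-1 mock replicate 1 (0.0756) or 2 (0.105). Subfamilies 33C and 33D gave 3 more: cyp-33C8 (log2 change 1.02, adjusted p = 0.00525), cyp-33D3 (1.65, 0.0411) and cyp-33C9 (0.54, 0.0411). The call of cyp-33C8 was lost without glp-1 mock replicate 1 (0.0879). That of cyp-33D3 was lost on leaving out N2 mock replicate 1 (0.226), N2 RNAi replicate 1 (0.0547) or 2 (0.0546) and glp-1 mock replicate 1 (0.235) or 2 (0.129). That of cyp-33C9 was lost without any of the 4 mock libraries (0.102 to 0.332) and without N2 RNAi replicate 1 (0.0511) or 2 (0.0507), with the replicate block (0.0508) and with the length trend removed (0.0534). DESeq2 did not call cyp-33D3 (0.0543). The gene cyp-35A2 was higher in glp-1 mock (log2 change 0.78, adjusted p = 0.0134), and was lost without N2 mock replicate 1 (0.0773) or 2 (0.0602) and glp-1 mock replicate 1 (0.169) or 2 (0.0996).

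Under RNAi, 7 members were higher and 7 lower in glp-1 than in N2, or 22.6% of 62 against a background of 18.1% of all genes (10.6% higher and 7.54% lower). That share is near the background. Both glp-1 libraries lay above both N2 libraries in 25 members and below them in 11, against 32.2% and 29.3% of all genes. Markers of other tissues moved in this contrast too: 4 of 8 hypodermis, 2 of 7 germline, 2 of 9 oocyte and eggshell and 1 of 8 intestine markers were lower, 3 of 5 tested sperm and 2 of 5 neuron markers were higher, and 2 of 5 body wall muscle markers were higher and 1 lower. edgeR called none of 6 embryo and 3 pharynx markers, of which 0 and 2 had an unadjusted p under 0.05 and DESeq2 called 0 and 1. Of these 17 calls 15 were lost on leaving out some library. Germline markers summed to 1550 to 1647 CPM in N2 and 1160 to 1209 CPM in glp-1, oocyte and eggshell markers to 5390 to 5727 against 4254 to 4264 CPM, and hypodermis markers to 2352 to 3235 against 3288 to 3968 CPM. Sperm markers summed to 52.8 to 69.7 CPM against 83.5 to 103 CPM, neuron markers to 83.5 to 83.9 against 95.9 to 106 CPM, and muscle markers to 2719 to 3301 against 2588 to 3063 CPM. The part of these in the cyp results was not tested. The count of cyp calls fell to 5 without N2 RNAi replicate 2 and to 8 without glp-1 RNAi replicate 1. The lower members that kept their call under each alternative run were cyp-13A12 (log2 change -1.77, SE 0.27, adjusted p = 0.00188), cyp-34A9 (-1.56, SE 0.12, adjusted p = 1.48e-05), cyp-34A10 (-1.19, SE 0.21, adjusted p = 0.0051) and cyp-13A6 (-1.03, SE 0.20, adjusted p = 0.00703). For cyp-13A12 the sign was the opposite of that under mock, since 5.61 and 6.02 CPM in N2 RNAi stood against 1.81 and 1.59 CPM in glp-1 RNAi.

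The remaining called members under RNAi were cyp-33D3, cyp-33C7, cyp-33C8, cyp-33C9, cyp-34A8, cyp-35A2 and cyp-35B1 higher and cyp-13A7, cyp-14A2 and cyp-25A1 lower, with log2 changes from 0.64 to 1.68 and from -1.10 to -0.76. The largest, cyp-33D3 (1.68, adjusted p = 0.0217), was lost without N2 RNAi replicate 1 (0.0714) or 2 (0.137) and glp-1 RNAi replicate 2 (0.0800). The gene cyp-35B1 (1.40, adjusted p = 0.00876) was lost without N2 RNAi replicate 2 (0.0663). The gene cyp-14A2 (-1.10, adjusted p = 0.0169) was lost without N2 RNAi replicate 2 (0.0998) and glp-1 RNAi replicate 1 (0.0877). The gene cyp-25A1 (-0.93, adjusted p = 0.0141) was lost without N2 RNAi replicate 1 (0.0640) and glp-1 RNAi replicate 1 (0.0780). The calls of cyp-33C7, cyp-33C8, cyp-33C9, cyp-34A8, cyp-35A2 and cyp-13A7 were lost without N2 RNAi replicate 2, with adjusted p of 0.163, 0.117, 0.117, 0.163, 0.169 and 0.146 in that order. Without glp-1 RNAi replicate 1 those of cyp-33C8 (0.0876), cyp-33C9 (0.0630), cyp-34A8 (0.0647), cyp-35A2 (0.0567) and cyp-13A7 (0.138) were lost as well. Without glp-1 mock replicate 1 those of cyp-33C7 (0.0537), cyp-35A2 (0.0623) and cyp-13A7 (0.0739) were lost. Single losses were those of cyp-33C7 without glp-1 RNAi replicate 2 (0.0521), of cyp-35A2 and cyp-13A7 without glp-1 mock replicate 2 (0.0569 and 0.0810) and of cyp-13A7 without N2 RNAi replicate 1 (0.0828). With the RNAi groups alone all of these calls but those of cyp-33D3 and cyp-35B1 were lost (0.0650 to 0.104). That of cyp-13A7 was also lost with library totals (0.0723), DESeq2 (0.0764) and limma (0.0709).

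Family 33 was the largest family, with 18 members of which 13 were tested. With RNAi none was called by edgeR in N2 or in glp-1, where 4 and 2 members had an unadjusted p under 0.05, and neither DESeq2 nor limma called any. Its summed level was 109 and 110 CPM in N2 mock, 106 and 91.3 CPM in N2 RNAi, 137 and 139 CPM in glp-1 mock and 124 and 130 CPM in glp-1 RNAi. One of its members, cyp-33E2, is known with cyp-29A3 for making eicosanoids from fatty acids. The log2 changes of cyp-33E2 were -0.59 in N2 and -0.15 in glp-1, and those of cyp-29A3 were -0.56 and -0.28, none of them called.

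Further members with known roles were not called. The genes cyp-31A2 and cyp-31A3, needed with emb-8 for the eggshell, had 82.9 to 103 CPM and 58.8 to 61.2 CPM in N2 mock and 85.5 to 86.6 and 56.8 to 59.6 CPM in N2 RNAi. Their levels in glp-1 mock were 78.3 to 85.3 and 56.0 to 56.1 CPM, and those in glp-1 RNAi 93.4 to 96.6 and 57.1 to 58.9 CPM. Neither was called in any of the 5 contrasts, with log2 changes between -0.33 and 0.22. The gene cyp-44A1, related to mitochondrial P450 enzymes, lay between 62.9 and 75.5 CPM over the 8 libraries. The gene cyp-36A1, which acts in the behavioural response to low oxygen, lay between 5.73 and 8.01 CPM, and cyp-14A1 between 3.85 and 10.3 CPM, with a log2 change of 0.70 in glp-1 against N2 under mock (adjusted p = 0.0877). None of these was called in any contrast.

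The partners of P450 enzymes were described by the same tests. Over all genes 3.13% were called higher in N2 RNAi, and 6.49% in glp-1 against N2 under mock. Of 3 electron donor genes, cytb-5.1, encoding a cytochrome b5, was higher in N2 RNAi (log2 change 0.54, SE 0.13, adjusted p = 0.0351), with 110 and 99.7 CPM in mock and 160 and 146 CPM in RNAi. The call was lost without any N2 library (0.097 to 0.194) and on leaving out glp-1 mock replicate 1 (0.0947) or 2 (0.105), and with library totals (0.0695) or limma (0.0675). It was also higher in glp-1 mock than in N2 mock (log2 change 0.46, adjusted p = 0.0477), and that call was lost without any of the 4 mock libraries (0.0963 to 0.292) and without N2 RNAi replicate 1 (0.0711) or 2 (0.0714). It was lost too with the replicate block (0.0552), with DESeq2 size factors (0.0537) and with the length trend removed, where the log2 change was 0.15 (0.428). The reductase gene emb-8 had 254 and 259 CPM in N2 mock, 217 and 241 CPM in N2 RNAi, 230 and 247 CPM in glp-1 mock and 190 and 196 CPM in glp-1 RNAi. Its log2 changes were -0.16 (adjusted p = 0.723) and -0.31 (adjusted p = 0.422). It did not pass in either strain.

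Heme supply genes gave 1 higher and 3 lower of 9 tested in N2 and 1 higher and 2 lower in glp-1. Over all genes the shares were 3.13% and 1.66% in N2 and 1.89% and 0.816% in glp-1. The gene hrg-1, a heme importer of lysosome-related compartments, had 54.5 and 56.4 CPM in N2 mock and 28.3 and 23.7 CPM in N2 RNAi (log2 change -1.09, SE 0.16, adjusted p = 0.00155). In glp-1 it had 59.9 and 64.2 CPM in mock and 40.1 and 29.2 CPM in RNAi (log2 change -0.84, adjusted p = 0.0146), a call lost without glp-1 mock replicate 1 (0.0860) or 2 (0.163) and with the glp-1 groups alone (0.0746). The exporter gene mrp-5, through which heme leaves the intestine, had log2 changes of -0.60 in N2 (adjusted p = 0.039) and -0.69 in glp-1 (adjusted p = 0.0281). In N2 it was lost without any N2 library (0.111 to 0.225) and without glp-1 mock replicate 1 (0.131) or 2 (0.108). In glp-1 it was lost without any library other than N2 RNAi replicate 2 and glp-1 RNAi replicate 2 (0.0505 to 0.288), and with the glp-1 groups alone (0.0924). The intestinal heme importer gene hrg-4 was lower in N2 (log2 change -0.79, adjusted p = 0.047), with the call lost without any library other than N2 RNAi replicate 1 (0.0542 to 0.403), and with the N2 groups alone (0.123). The gene hrg-2, which acts in the hypodermis, was higher in N2 (log2 change 0.81, adjusted p = 0.00705) and in glp-1 (0.60, adjusted p = 0.0481). In N2 it was lost on leaving out N2 mock replicate 2 (0.0708) and N2 RNAi replicate 1 (0.0633). In glp-1 it was lost without N2 mock replicate 1 (0.0620) or 2 (0.0599), glp-1 mock replicate 1 (0.605) or 2 (0.314) and glp-1 RNAi replicate 1 (0.215). Losses in glp-1 also came with DESeq2 size factors (0.0516), library totals (0.0768), limma (0.10) and the glp-1 groups alone (0.0557). Between strains under mock, hrg-2 and hrg-10 were higher in glp-1, with log2 changes of 2.03 (adjusted p = 8.51e-06) and 1.16 (adjusted p = 0.000367). These were 2 of 9 tested, against 6.49% of all genes. Under RNAi 3 of 9 were higher in glp-1 (hrg-7, hrg-2 and hrg-10), against 10.6% of all genes. The call of hrg-7 was lost with the RNAi groups alone (edgeR adjusted p = 0.104) and on leaving out some libraries.

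Of 14 regulators of xenobiotic and stress responses, 2 were higher in N2 RNAi and none lower. Over all genes 3.13% were higher and 1.66% lower. The list held ets-4 and was chosen with earlier results of these data known, so this count is no evidence on regulators as a set. Besides ets-4, only pqm-1 was called in N2 and no regulator in glp-1. The gene ets-4, a transcription factor gene whose mRNA is a known target of REGE-1, had 18.1 and 21.2 CPM in N2 mock and 78.4 and 109 CPM in N2 RNAi (log2 change 2.25, SE 0.17, adjusted p = 8.56e-06). In glp-1 it had 20.3 and 19.4 CPM in mock and 70.5 and 80.3 CPM in RNAi (log2 change 1.93, adjusted p = 3.85e-05). The other was pqm-1, a zinc finger factor gene, with 9.29 and 15.5 CPM in N2 mock and 20.8 and 41.7 CPM in N2 RNAi (log2 change 1.34, adjusted p = 0.0257). Its call was lost on leaving out N2 mock replicate 1 (0.297), N2 RNAi replicate 2 (0.314) and glp-1 RNAi replicate 1 (0.109) or 2 (0.111), and with no filter (0.0704) or the N2 groups alone (0.150). The nuclear receptor genes nhr-8, nhr-48, nhr-49, nhr-66, nhr-86 and nhr-176 were called in neither strain. Between strains under RNAi, mdt-15 was lower in glp-1 (log2 change -0.62, edgeR adjusted p = 0.0262). It was 1 of 14, against 7.54% of all genes. That call was lost with library totals (0.0620), limma (0.0707), the length trend removed (0.0574) and the RNAi groups alone (0.0898). It was lost on leaving out some libraries too.

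Other enzymes and pathways close to the family were tested in the same fit. With RNAi, edgeR, DESeq2 and limma called none of 6 hypoxia pathway genes, none of 5 tested genes of dafachronic acid synthesis and sensing, none of 5 flavin monooxygenase genes and neither of 2 epoxide hydrolase genes, in either strain. At an unadjusted p under 0.05 there were 1, 1, 3 and 0 of them in N2 and 1, 0, 0 and 0 in glp-1. The share of all genes at that threshold was not computed, so these counts cannot be read as many or few. The P450 gene daf-9, which makes the dafachronic acids, lay between 1.44 and 2.50 CPM in the 8 libraries, with log2 changes of -0.05 in N2 (adjusted p = 0.977) and 0.27 in glp-1 (adjusted p = 0.776). Between strains under RNAi, fmo-3 was higher in glp-1 (log2 change 0.53), 1 of 5 against 10.6% of all genes. That call was lost with the RNAi groups alone (edgeR adjusted p = 0.118) and on leaving out some libraries. Under mock, fmo-1 was lower in glp-1 (log2 change -0.63, adjusted p = 0.0166), a call lost without N2 mock replicate 1 (0.0660) or 2 (0.0557) and glp-1 mock replicate 1 (0.155) or 2 (0.218).

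Intron counts, a separate readout of the same libraries, were too few to follow most members. Over the family they came to 101 to 189 per library, against 27557 to 57762 mRNA counts, and 23 members had no intron count in any library. Of the members, 4 passed the filter on intron counts: cyp-13A2, cyp-36A1, cyp-43A1 and cyp-44A1. None was called by edgeR in either strain, against a background of 1.07% of 5042 genes in N2 and 0.694% in glp-1. None had an unadjusted p under 0.05. Their log2 changes were -0.91 (SE 1.04), -0.0030 (SE 0.51), -0.57 (SE 0.55) and -0.11 (SE 0.61) in N2. At these errors a change of the size seen in the mRNA of cyp-13A2 was not detectable. Its intron counts were uneven, at 46 and 12 in N2 mock and 31 and 0 in N2 RNAi. Without N2 RNAi replicate 1 its intron log2 change was -7.95, a value that rests on the library with 0 counts.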

How the data were processed

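Whole-animal RNA of 8 libraries was measured as reads over exons and introns of each gene. The authors deposited whole-number counts per gene for mRNA and for introns, and log2 values beside them. Each deposited log2 value was recomputed here by dividing the count by its library total, multiplying by the average total and adding 8 before the logarithm, and matched on every gene. The sources used here name no aligner, genome build, counting rule or use of strand. Libraries held 26127079 to 30093967 mRNA counts and 464385 to 684124 intron counts. The deposited gene widths were multiples of 3 for 96.6% of genes and were taken as coding length.

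Counts of all 4 groups were fitted together with edgeR 4.0.16 (R 4.3.3) with TMM scaling, a filter for at least 10 counts (filterByExpr), robust quasi-likelihood fits and no block. The fit gave tests of RNAi against mock in each strain, of the difference between those changes, and of glp-1 against N2 under mock and under RNAi. Genes were called at a Benjamini-Hochberg adjusted p under 0.05 over all 15321 genes tested in mRNA and 5042 in introns. SE is the log2 change divided by the square root of F. CPM and RPKM were computed here from the counts with TMM-scaled library sizes. Alternatives were other scalings, no filter, DESeq2 1.42.0, limma 3.58.1 on the deposited log2 values, a length trend, the compared groups alone, a replicate block and leaving out each library. The steps were tested on simulated data. Intervals of counting error do not cover differences between cultures.

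Named genes were the called members, up to 10 for each strain comparison, the members with known roles and the called genes of the pathway lists. Members and lists were chosen with earlier results of these data known. Names and positions come from the Ensembl release 115 annotation (WBcel235), matched by gene ID, and 18778 of 20182 genes had a symbol. Sequences were not used here.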

Additional observations from a re-analysis of the deposited data

Results flagged for a closer look

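The response of cyp-13A12 to rege-1 RNAi differed between the strains in the test of the difference itself. The N2 change exceeded the glp-1 change by 3.55 on the log2 scale (3.54968 unrounded; SE 0.48, edgeR adjusted p = 0.0429). Both RNAi libraries of N2 lay above all other libraries, at 5.61 and 6.02 CPM against at most 1.81 CPM elsewhere. The 2 N2 mock libraries held 13 and 4 counts, and the call was lost without each of 7 of the 8 libraries, with adjusted p from 0.0656 to 0.222.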

How the results depend on the processing

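No value of a called member reversed: of 863 values for 54 gene and comparison pairs, 752 kept direction and call and 111 kept direction only, 89 of these on leaving out a library. The cause was not tested. Leaving out 1 library moved the count called from 17 to between 10 and 18 for RNAi in N2, from 9 to between 6 and 10 in glp-1, from 1 to between 0 and 6 for the difference, from 13 to between 6 and 16 for strain under mock, from 14 to between 5 and 14 for strain under RNAi, and from 0 to between 0 and 1 for N2 introns. The difference gave 3 with no filter, 6 with DESeq2 and 2 with the length trend removed, and it could not be fitted on the compared groups alone, since it uses all 4. Strain under RNAi gave 6 on the compared groups alone. Library totals alone gave a summed level of 1279.6 RPKM in N2 mock (1313 with TMM) and 859 RPKM in glp-1 mock (805).

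Scaling moved the split of strain calls. Under mock the 8 higher and 5 lower became 11 and 5 with library totals or limma, 6 and 6 with DESeq2 and 8 and 8 with the length trend removed. Under RNAi the 7 and 7 became 10 and 6 with totals and 11 and 6 with limma. Totals shifted the median of all genes by 0.13 under mock and 0.16 under RNAi, on the log2 scale. With limma the shifts were 0.13 and 0.14. The share of all genes called was computed for the main fit only. The member counts under other settings, here and above, thus have no background and are not read as a trait of the family.

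Correlations over genes of the deviations of same-numbered libraries ran from -0.114 to 0.169 between groups. The highest was between N2 mock and N2 RNAi. With 2 libraries per group these values cannot decide whether the replicate numbers pair the libraries. With the replicate block 17 members were called in N2, 9 in glp-1, 1 for the difference, 12 for strain under mock, 15 for strain under RNAi and 0 for introns in each strain. Depth limits the 11 members left untested and genes such as cyp-13A12 with few mock counts.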
